A study of Mus musculus with 6 samples.

Results

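Granulocytes and mast cells travel with macrophages in the mouse peritoneal cavity, and the array values of 32 of their genes were examined in cultures of thioglycollate-elicited macrophages from Tet2-/- and wild-type mice. The genes were listed by lineage: 13 of neutrophils, 6 of eosinophils, 11 of mast cells, and the 2 transcription factors Gata1 and Gata2, which mast cells and eosinophils share. A named probe set was found for 30 of the 32 (all but Ear1 and Ear2), out of 25206 probe sets on the array.

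Neutrophils carry their weapons in granules made in sequence. Primary granules, packed early in the bone marrow, hold serine proteases and myeloperoxidase. Secondary granules hold lactoferrin and antimicrobial peptides, and the cytosol of the mature cell is rich in the calcium-binding pair S100a8 and S100a9. Eosinophils store a peroxidase, major basic protein and ribonucleases, and depend on interleukin-5. Mast cells, long-lived residents of the peritoneal cavity, store carboxypeptidase, chymases, tryptases and histamine, and display the stem cell factor receptor Kit and the high-affinity IgE receptor. Thioglycollate injected into the cavity draws in neutrophils and eosinophils early and macrophages later.

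The cells came from C57BL/6J mice lacking Tet2, a dioxygenase that oxidises methylated cytosine in DNA, and from wild-type littermates. All mice had received 1 mL of 4% thioglycollate 4 days before, and the harvested cells were plated without treatment and lysed 10 h later, per the labels' protocols. Each genotype had 3 arrays, called biological replicates 4, 5 and 6, and values are given below in that order, wild-type first. Whether a replicate is 1 mouse is not spelled out, and the p-values cover the spread among these 6 arrays, which may be partly technical. How Tet2 was inactivated is not given in the sources used here.

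The title and the genotype characteristic contradict each other for 4 of the 6 samples. Groups follow the title. Grouping by the characteristic turned the sign of 22 of the 30 member differences, and those values stand with the alternative settings in the closing section. The labelled cell type was borne out by its markers: 11 of 12 measured macrophage genes lay above background on all 6 arrays, among them Adgre1, Csf1r, Cd68 and Itgam. The array of Tet2-/- replicate 6 stood apart, with the highest median log2 value (2.93 against 2.76 to 2.82) and the lowest mean correlation with the other arrays (0.982 against 0.986 to 0.989). Mesothelial and fibroblast genes were also above background on every array for 7 of 9 measured. Among them was the collagen gene Col1a1, at 6.44 to 7.39 on the log2 scale. Upk3b (4.28 to 4.9), Wt1 (4.45 to 5.15) and Lrrn4 (2.95 to 3.42) were others. The mesothelial gene Msln (2.16 to 2.62) was above background on 1 array and Krt19 on 5. Of 11 measured T and NK cell genes, 2 were above background on all 6 arrays (Klrb1c at 2.89 to 3.23 and Nkg7 at 2.62 to 2.75), 3 on some (Ncr1 on 1 array) and 6 on none, Cd3e among the last.

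The deposited values carry no detection call, so background was read from genes expected to be mostly silent in macrophages. On each array the threshold was the 95th percentile of 1364 probe sets of odorant, vomeronasal and trace amine receptor genes, which came to log2 values of 2.42 to 2.69. By construction about 5% of those receptors lie above it. On all 6 arrays 41 of the 1364 did, and the highest receptor value was 6.2. A probe set under the threshold shows only that its signal was no higher than that of most such receptors. The ribosomal protein gene Rplp0, which every cell uses, lay between 2.44 and 4.33 and was below the threshold on 1 array. A probe set just above the threshold is no firm detection either, since 7 of 36 measured genes of other tissues were above it on all 6 arrays, the sperm protamine Prm2 reaching 5.57. For that reason 2 stricter thresholds were read beside the first: the 99th percentile of the receptors (3.59 to 4.04) and the 95th percentile of the other-tissue genes (3.65 to 4.04).

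By the first threshold, neutrophil members were above background on every array, mast cell members on every array in small number, and eosinophil members on none. Of the 13 neutrophil genes, 7, 7 and 7 were above background on the wild-type arrays and 5, 6 and 7 on the Tet2-/- arrays. Of the 11 mast cell genes the numbers were 3, 3 and 2 in wild-type and 3, 4 and 1 in Tet2-/- cells. Of the 4 measured eosinophil genes, 0 were above background on any array. Gata1 and Gata2 were above it on all 6.

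Those counts have to be read against the array as a whole, where 54.6% to 56.8% of all probe sets were above the threshold on each array. Of the 36 measured genes of other tissues, 27.8% to 41.7% were above it per array. The threshold was passed by 9.09% to 36.4% of the mast cell members and 38.5% to 53.8% of the neutrophil members. On all 6 arrays together 49.8% of probe sets were above it, and 7 of the 30 members were: S100a8, Padi4, Prtn3, Lcn2, Tpsb2, Gata1 and Gata2. A further 7 were above on some arrays and 16 on none. With either stricter threshold only S100a8 and Padi4 were above background on all 6 arrays, and Prtn3 was above on 2, Tet2-/- replicates 4 and 5. No mast cell or GATA member reached a stricter threshold on any array.

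**Figure D1:**
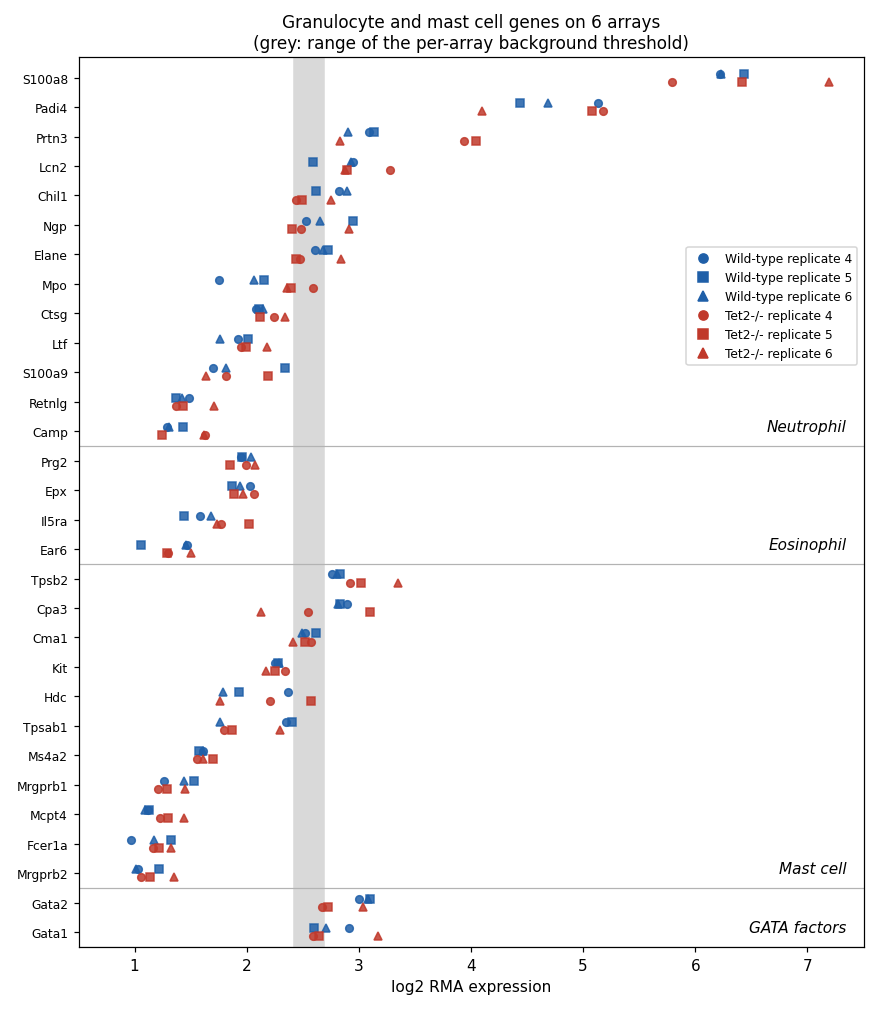
Log2 RMA expression of the 30 measured genes, 1 row per gene and 1 point per array, with wild-type in blue and Tet2-/- in red. The grey band spans the background thresholds of the 6 arrays (2.42 to 2.69). S100a8 (5.79 to 7.19) and Padi4 (4.10 to 5.18) stand clear to the right of the band, Prtn3 does so most on 2 Tet2-/- arrays, and every eosinophil point lies to its left.

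**Figure D2:**
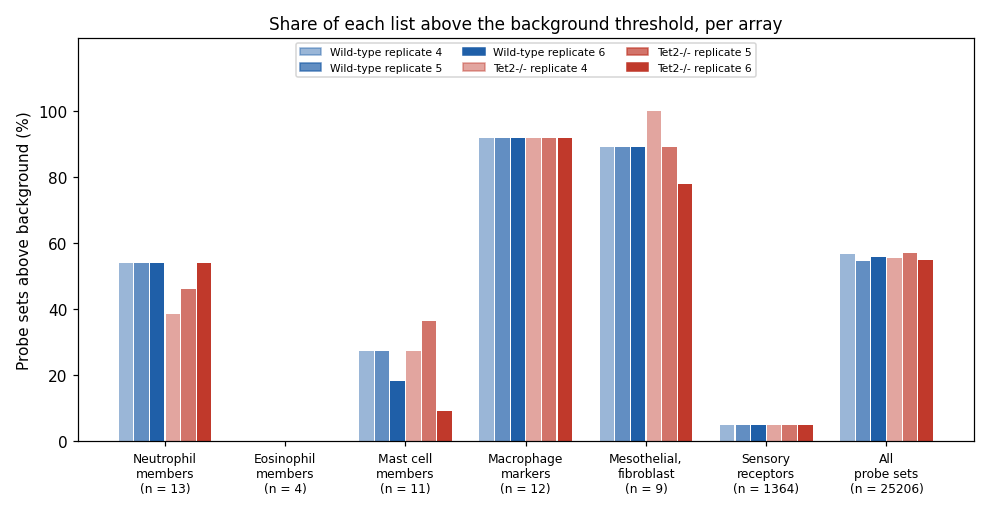
Percent of each list above the background threshold, 1 bar per array. All eosinophil bars are 0, mast cell bars run from 9.09% to 36.4%, and neutrophil bars from 38.5% to 53.8%, against 54.6% to 56.8% of all probe sets. Macrophage markers stand at 91.7% on every array.

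S100a8 was above all 3 thresholds on every array. It encodes the smaller subunit of calprotectin, a calcium- and zinc-binding protein that neutrophils hold in bulk and that inflamed macrophages can also make. Its log2 level was 6.22, 6.43 and 6.23 in wild-type and 5.79, 6.42 and 7.19 in Tet2-/- cells, at least 3.30 log2 units above the threshold on each array. The Tet2-/- arrays held both the lowest and the highest value, and the groups overlapped. The means were 6.29 ± 0.118 and 6.47 ± 0.701 (SD, n = 3 each), a difference of 0.17 with a 95% confidence interval of -0.51 to 0.85 (limma adjusted p = 0.998). Without Tet2-/- replicate 6 the difference was -0.19, and with limma's array weights it was -0.13.

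S100a9, which encodes the partner subunit of calprotectin, gave no such signal. Its level was 1.70, 2.34 and 1.81 in wild-type and 1.81, 2.19 and 1.64 in Tet2-/- cells, below the threshold on all 6 arrays. The difference was -0.07, with an interval of -0.54 to 0.40. The 2 genes are neighbours on chromosome 3. Array levels of different probe sets are not on a common scale, so only the position of each against background is given, and whether the S100a9 probe set responds to its transcript was not tested.

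The 250 bases before the annotated starts of this pair are shown because the pair lies on opposite sides of the background, from the RefSeq promoter table of build GRCm38.p6. S100a8 is on the plus strand, at chr3:90668821-90669070, and S100a9 on the minus strand, at chr3:90695722-90695971. Capitals mark matches, on either strand, to 3 short motifs. The first, GAGGAAG, holds the core bound by the myeloid transcription factor PU.1. The second, TTGCNNAA, is a form of the site bound by C/EBP factors, which act in granulocyte development. The last, AGATAA, is a form of the site bound by GATA factors such as the members Gata1 and Gata2.
S100a8: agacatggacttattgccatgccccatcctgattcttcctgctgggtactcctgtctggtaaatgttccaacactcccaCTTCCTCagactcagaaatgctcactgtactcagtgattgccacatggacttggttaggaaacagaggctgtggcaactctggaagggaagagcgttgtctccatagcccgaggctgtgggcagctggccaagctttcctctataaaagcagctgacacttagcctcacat
S100a9: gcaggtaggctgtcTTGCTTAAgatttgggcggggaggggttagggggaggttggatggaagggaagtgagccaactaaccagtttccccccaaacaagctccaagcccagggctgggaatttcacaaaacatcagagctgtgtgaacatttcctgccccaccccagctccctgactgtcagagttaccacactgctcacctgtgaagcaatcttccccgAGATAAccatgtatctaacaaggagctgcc
The S100a8 window held GAGGAAG on the opposite strand, and the S100a9 window held TTGCNNAA and AGATAA. Of all 32851 windows in the table, 10.6% held GAGGAAG, 9.56% TTGCNNAA and 9.99% AGATAA on either strand. These are matches of letters, not measured sites.

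Of the 13 neutrophil members, Padi4 was the other above both stricter thresholds on all 6 arrays. It encodes a peptidylarginine deiminase that citrullinates histones when neutrophils release chromatin traps, and it is also found in monocytes and macrophages. Its level was 5.13, 4.44 and 4.69 in wild-type and 5.18, 5.08 and 4.10 in Tet2-/- cells. Tet2-/- replicate 6 was the lowest of the 6 for Padi4 and the highest for S100a8. The groups overlapped, with means of 4.75 ± 0.349 and 4.79 ± 0.597 (SD, n = 3 each) and a difference of 0.03 (95% interval -0.63 to 0.70), which was 0.38 without Tet2-/- replicate 6 and -0.16 at the lowest when another single array was left out.

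Among the primary granule genes, Prtn3 had the largest difference of all 30 members. Prtn3 encodes proteinase 3, a serine protease stored with elastase. Its level was 3.09, 3.13 and 2.90 in wild-type and 3.94, 4.04 and 2.83 in Tet2-/- cells. Replicates 4 and 5 of Tet2-/- were above every wild-type array and replicate 6 was below every one, so the groups overlapped. The means were 3.04 ± 0.123 and 3.60 ± 0.672 (SD, n = 3 each), a difference of 0.56 (1.48-fold, interval -0.09 to 1.22) that did not pass (limma adjusted p = 0.998). The difference was 0.95 without Tet2-/- replicate 6 and 0.34 at the lowest when another array was left out, and it was 0.07 with samples grouped by the genotype characteristic.

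Some B-cell markers were high on the same 2 arrays. Of 10 listed B-cell genes 9 were measured, and their summed log2 level was 18.92 to 19.56 in wild-type, 24.28 and 27.72 in Tet2-/- replicates 4 and 5, and 21.37 in replicate 6. Of the 9, Cd79b was above background on all 6 arrays, Cd79a, Ms4a1, Pax5 and Blk on some, and Cr2, Fcer2a, Vpreb3 and Ebf1 on none. Cd79a was at 4.55 and 5.22 on those 2 arrays and at 2.49 to 3.00 on the other 4. Cr2, Fcer2a and Vpreb3 went the other way on Tet2-/- replicate 5, where each had its lowest value (1.47, 1.52 and 1.82). Alox15, a lipoxygenase of eosinophils and resident peritoneal macrophages, was at 5.93 and 6.91 there and at 3.10 to 4.14 elsewhere. The summed log2 level of the 12 measured macrophage genes was also highest on Tet2-/- replicates 4 and 5, at 102.6 and 103.8 against 96.77 to 101.9 elsewhere. Of the 12, 2 peaked on Tet2-/- replicate 4, 6 on replicate 5 and 1 on replicate 6. On the wild-type arrays 1, 0 and 2 did. The part of B cells, macrophages or other cells in the Prtn3 values was not tested. In bulk RNA, fewer cells of a type and less RNA per cell cannot be told apart.

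Mpo, which encodes the myeloperoxidase of primary granules, had the smallest p of the members. It was at 1.75, 2.15 and 2.06 in wild-type and 2.59, 2.39 and 2.36 in Tet2-/- cells, so every Tet2-/- array was above every wild-type array. Only Tet2-/- replicate 4 exceeded the background threshold, by 0.10 log2 units. The difference was 0.46 (standard error 0.152, interval 0.12 to 0.80) and it did not pass over all probe sets (limma unadjusted p = 0.0144, adjusted p = 0.998). Grouped by the genotype characteristic, it was -0.03.

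Elane and Ctsg, for neutrophil elastase and cathepsin G, lay at or below the threshold. Elane was at 2.61, 2.72 and 2.68 in wild-type and 2.47, 2.44 and 2.84 in Tet2-/- cells, above the threshold on 5 arrays by at most 0.17. Elane neighbours Prtn3 on chromosome 10, but its values were not raised on Tet2-/- replicates 4 and 5, where they were the lowest of the 6. Ctsg stayed below the threshold on all 6 arrays, at 2.08 to 2.34.

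The upstream windows of the primary granule genes shared 1 of the 3 motifs searched. GAGGAAG was found in 4 of 4 of them (Elane, Mpo, Prtn3 and Ctsg), in 6 of 13 neutrophil genes, 2 of 9 mast cell genes with a window and 0 of 5 eosinophil genes, against 10.6% of all windows. TTGCNNAA was found in none of the 4 and in 5 of the 13. The motifs were chosen with earlier results of these data known, so these counts are no test. A gene was counted where any of its windows matched, whereas the 10.6% is a share of windows. The windows of the 2 genes with the largest differences are shown, with GAGGAAG in capitals: Prtn3 at chr10:79879417-79879666 and Mpo at chr11:87793534-87793783, both on the plus strand of GRCm38.p6.
Prtn3: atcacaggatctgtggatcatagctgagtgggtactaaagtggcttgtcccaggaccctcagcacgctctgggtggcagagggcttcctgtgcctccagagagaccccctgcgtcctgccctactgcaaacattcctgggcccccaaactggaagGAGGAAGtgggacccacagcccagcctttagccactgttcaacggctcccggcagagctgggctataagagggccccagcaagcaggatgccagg
Mpo: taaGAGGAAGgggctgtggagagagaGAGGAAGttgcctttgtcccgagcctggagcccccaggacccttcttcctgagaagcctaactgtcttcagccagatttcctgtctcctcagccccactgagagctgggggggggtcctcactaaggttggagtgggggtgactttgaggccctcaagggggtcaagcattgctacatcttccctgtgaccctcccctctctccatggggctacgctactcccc

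Secondary granule genes gave little signal. Lcn2, for the siderophore-binding lipocalin that macrophages also make on stimulation, was the only 1 of these 5 above background on all 6 arrays. It was at 2.95, 2.59 and 2.93 in wild-type and 3.28, 2.89 and 2.88 in Tet2-/- cells, and wild-type replicate 5 sat at the threshold itself. Its difference of 0.19 (interval -0.19 to 0.57) did not pass. Ngp, for neutrophilic granule protein, was at 2.53, 2.95 and 2.65 in wild-type and 2.48, 2.40 and 2.91 in Tet2-/- cells, above the threshold on 4 arrays.

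Chil1, for a chitinase-like protein that macrophages also make, was at 2.82, 2.62 and 2.89 in wild-type and 2.44, 2.49 and 2.75 in Tet2-/- cells, above the threshold on 5 arrays. Its difference was -0.22 (interval -0.55 to 0.11), and the groups overlapped. Camp, for the cathelicidin peptide, and Ltf, for lactoferrin, were below the threshold on all 6 arrays, at 1.24 to 1.63 and 1.76 to 2.18. So was Retnlg, a resistin-like protein of mature neutrophils, at 1.37 to 1.71.

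**Figure D3:**
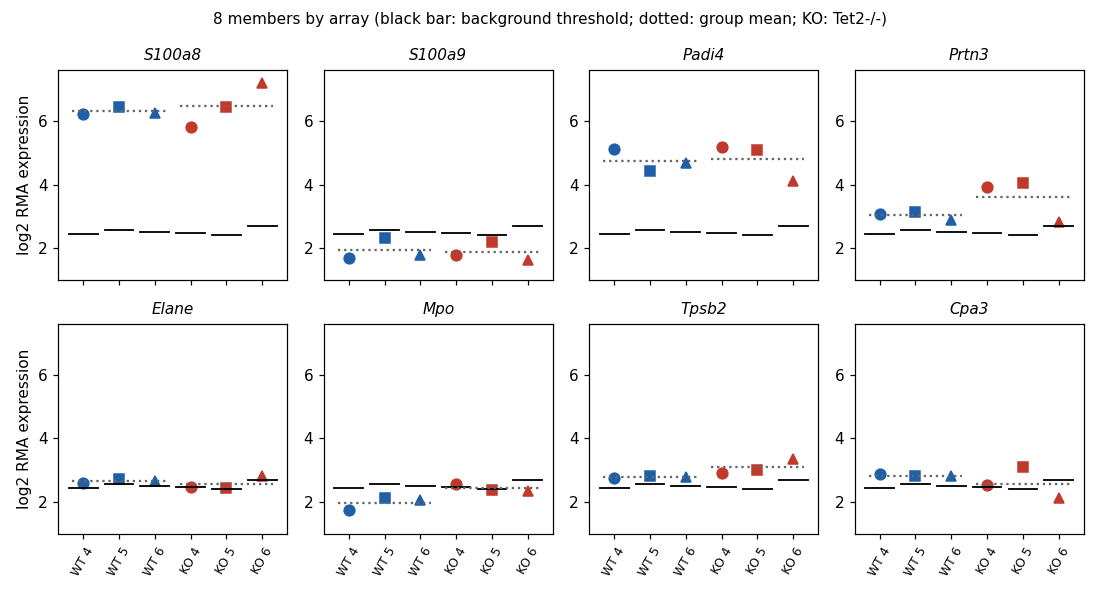
Log2 RMA expression of 8 members on each array, on a common axis from 1 to 7.6, with circles, squares and triangles for replicates 4, 5 and 6. Black bars mark each array's background threshold and dotted lines the group means. S100a8 is far above the bars and S100a9 below them, Prtn3 is raised on Tet2-/- replicates 4 and 5, and Mpo, Elane, Tpsb2 and Cpa3 lie close to the bars.

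Further neutrophil genes were also divided between signal and background. Of 25 listed 23 were measured, 9 were above background on all 6 arrays (39.1%, against 49.8% of all probe sets) and 7 on none (30.4%, against 38.3%). The G-CSF receptor gene Csf3r (6.16 to 6.98), the collagenase gene Mmp8 (5.26 to 6.63), the protease inhibitor gene Slpi (7.16 to 9.23) and Wfdc17 (10.69 to 11) were among the 9, with Mmp9, Cebpe, Gfi1, Pglyrp1 and Stfa3. In bulk RNA these values do not show which cells made the transcripts, and the part of macrophages in them was not tested. Ly6g, the surface antigen by which mouse neutrophils are usually sorted, was above background on 1 array only, at 2.87 in Tet2-/- replicate 6 against 1.57 to 2.15 on the others. The neutrophil chemokine receptor gene Cxcr2 lay within 0.26 log2 units of the threshold on every array, above it on 5.

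Of those 23 genes, 3 had an unadjusted limma p under 0.05, against 3.61% of all probe sets. Stfa3, a stefin of myeloid cells, was at 3.55 ± 0.666 in wild-type and 5.59 ± 0.0635 (SD, n = 3 each) in Tet2-/- cells, a difference of 2.04 (limma adjusted p = 0.288). It was 2.40 and passed without wild-type replicate 4 (limma adjusted p = 0.0371), a fit in which 1 probe set passed. Grouped by the genotype characteristic, the Stfa3 difference was -1.11. Pglyrp1, for a peptidoglycan recognition protein of neutrophil granules, was at 3.82, 4.23 and 4.05 in wild-type and 4.35, 4.83 and 4.80 in Tet2-/- cells, a difference of 0.63 (interval 0.23 to 1.03, limma adjusted p = 0.998). Every Tet2-/- array was above every wild-type array for 2 of the 23 (Stfa3 and Pglyrp1), against 3.33% of all probe sets. Every Tet2-/- array was below for 2 of the 23 (Mmp9 and Stfa1), against 4.07%. Stfa1, a related stefin, was below background on all 6 arrays and differed by -0.55, or 0.29 grouped by the genotype characteristic. With all 6 arrays, 0 of the 3 passed over all probe sets.

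None of the measured eosinophil members was above background on any array. Epx, for eosinophil peroxidase, was at 1.87 to 2.06, Prg2, for major basic protein, at 1.85 to 2.07, and the eosinophil ribonuclease gene Ear6 at 1.06 to 1.5. Il5ra, for the interleukin-5 receptor that eosinophils share with peritoneal B-1 cells, was at 1.58, 1.44 and 1.68 in wild-type and 1.77, 2.02 and 1.73 in Tet2-/- cells. Every Tet2-/- value was above every wild-type value, yet all 6 were at least 0.40 log2 units under the threshold. The difference was 0.27 (interval -0.05 to 0.59, limma adjusted p = 0.998).

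Of 13 further eosinophil genes 8 were measured, and 4 were above background on all 6 arrays (50.0%, against 49.8% of all probe sets) and 4 on none. The chemokine receptor gene Ccr3 (1.04 to 1.39) and Prg3 (1.77 to 2.06), a second major basic protein, were among the latter. The 4 above background were Siglecf, Alox15, Cd300lf and the ribonuclease gene Rnase2b. Cd300lf (5.87 to 6.6) was above both stricter thresholds on all 6 arrays. Rnase2b (4.03 to 4.7) was above that of the other-tissue genes on all 6 and the 99th percentile of the receptors on 5. Siglecf was above both on 5 arrays and Alox15 on 3. Which cells made the transcripts of these 4 genes was not tested. Siglecf, for a lectin that eosinophils share with some macrophages, was at 5.37, 5.58 and 5.02 in wild-type and 4.65, 3.58 and 4.12 in Tet2-/- cells. Every Tet2-/- array was below every wild-type array, a difference of -1.21 (interval -1.80 to -0.61) that did not pass over all probe sets (limma unadjusted p = 0.00134, adjusted p = 0.879) and was 0.01 grouped by the genotype characteristic. Alox15 differed by 2.08 with overlapping groups (limma unadjusted p = 0.0138, adjusted p = 0.998). The Alox15 difference was 2.97 and passed without Tet2-/- replicate 6 (limma adjusted p = 0.0394). In that fit 19 probe sets passed, against 0 with all 6 arrays. Grouped by the genotype characteristic, the Alox15 difference was -0.23. The 3 measured granule genes Epx, Prg2 and Ear6 differed by -0.01 to 0.03.

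Among the mast cell granule proteases, Tpsb2 was the only 1 of 5 above background on all 6 arrays. It encodes the tryptase mMCP-6. Its level was 2.76, 2.83 and 2.80 in wild-type and 2.92, 3.02 and 3.35 in Tet2-/- cells, at most 0.66 above the threshold. Every Tet2-/- array was above every wild-type array. The difference was 0.30 (interval -0.04 to 0.64, limma adjusted p = 0.998), 0.17 without Tet2-/- replicate 6 and -0.13 with samples grouped by the genotype characteristic.

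Cpa3, for mast cell carboxypeptidase, was even in wild-type and scattered in Tet2-/- cells. It was at 2.89, 2.83 and 2.81 in wild-type and 2.55, 3.10 and 2.13 in Tet2-/- cells, above the threshold on every array but that of Tet2-/- replicate 6. The SD was 0.0416 in wild-type and 0.486 in Tet2-/- cells (n = 3 each). The difference was -0.25 (interval -0.76 to 0.26), and it was -0.02 without Tet2-/- replicate 6 and -0.50 without replicate 5.

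The remaining proteases were at or under the threshold. Cma1, a chymase, was at 2.52, 2.62 and 2.49 in wild-type and 2.57, 2.52 and 2.41 in Tet2-/- cells, above the threshold on 4 arrays by at most 0.10. The second tryptase gene Tpsab1, which neighbours Tpsb2 on chromosome 17 and is listed by RefSeq as a transcribed pseudogene in this build, was below it on all 6, at 1.76 to 2.40. The chymase gene Mcpt4 was at 1.12, 1.13 and 1.09 in wild-type and 1.23, 1.30 and 1.44 in Tet2-/- cells. These groups did not overlap, but each value was at least 1.12 log2 units under the threshold.

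Mast cell receptors were below background throughout. Kit was at 2.17 to 2.34, 0.15 log2 units under the threshold at its nearest. The IgE receptor chains Fcer1a and Ms4a2 were at 0.97 to 1.32 and 1.56 to 1.70, and the receptors Mrgprb1 and Mrgprb2, through which connective-tissue mast cells sense peptides and drugs, at 1.21 to 1.53 and 1.01 to 1.35. Hdc, for the enzyme that makes histamine, was at 2.37, 1.93 and 1.79 in wild-type and 2.21, 2.57 and 1.76 in Tet2-/- cells, above the threshold on the array of Tet2-/- replicate 5 alone, by 0.15.

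Gata1 and Gata2, which also act in red cell and platelet precursors, were just above the first threshold on each array and below both stricter ones. Gata2 was at 3.00, 3.10 and 3.08 in wild-type and 2.67, 2.72 and 3.04 in Tet2-/- cells. Its groups overlapped through Tet2-/- replicate 6, and the difference was -0.25 (interval -0.57 to 0.07). Gata1 was at 2.91, 2.60 and 2.71 in wild-type and 2.59, 2.64 and 3.17 in Tet2-/- cells, a difference of 0.06 that was -0.07 with array weights. Of 7 measured red cell and megakaryocyte genes, 3 were above background on all 6 arrays (42.9%, against 49.8% of all probe sets). These were the platelet factor gene Pf4 (7.64 to 8.4), Gp9 (3.0 to 3.36) and Itga2b (2.8 to 3.08). Which cells made their transcripts was not tested. Klf1 was above background on 2 arrays and Epor on 4. Gp9 and Itga2b reached neither stricter threshold on any array, and Hbb-bs and Alas2 were below background on all 6.

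Among 21 further mast cell and basophil genes, 19 were measured and 14 were below background on all 6 arrays (73.7%, against 38.3% of all probe sets). These included the proteases Mcpt1, Mcpt2, Mcpt8 and Mcpt9, the basophil gene Prss34 and Tph1, an enzyme of serotonin synthesis. Above background on all 6 arrays were 4 (21.1%, against 49.8% of all probe sets). They were Hpgds (7.10 to 7.63), a prostaglandin D synthase, Il3ra (5.22 to 5.89), Gpr35 (3.67 to 4.97) and Enpp3 (3.46 to 4.32). Which cells made these transcripts was not tested. No gene of this list had an unadjusted limma p under 0.05.

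Between the genotypes 0 of 30 members passed an adjusted p of 0.05 by limma, against 0.0% of all probe sets. At an unadjusted p under 0.05 there was 1 of 30 (Mpo), against 3.61% of all probe sets. All 3 Tet2-/- arrays were above all 3 wild-type arrays for 4 of 30 (Mpo, Il5ra, Mcpt4 and Tpsb2), against 3.33% of all probe sets. They were below for 0 of 30, against 4.07%. Of those 4, Tpsb2 alone was above background on all 6 arrays, and Il5ra and Mcpt4 on none.

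By lineage, 9 neutrophil genes were higher and 4 lower in Tet2-/- cells with a median difference of 0.12, while over all probe sets 12396 were higher and 12597 lower with a median of 0.00. Of the 4 measured eosinophil genes 3 were higher and 1 lower (median 0.03), and of the 11 mast cell genes 6 were higher and 5 lower (median 0.03). Grouped by the genotype characteristic, the neutrophil median was -0.04. The member values were highest on the array of Tet2-/- replicate 6 for 12 of 30 genes, a tie counted for both arrays, and that array was the highest for 30.8% of all probe sets.

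**Figure D4:**
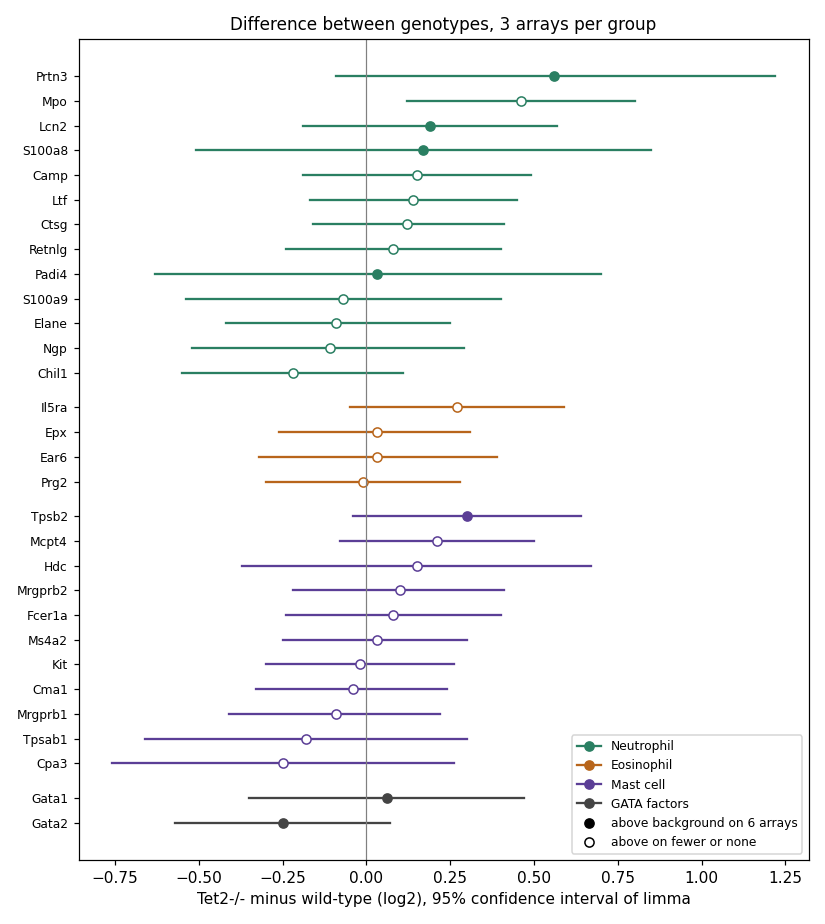
Difference in log2 expression, Tet2-/- minus wild-type, for the 30 measured genes with limma's 95% confidence interval (3 arrays per group). Filled points are genes above background on all 6 arrays and open points the rest. The interval spans 0 for every gene but Mpo (0.12 to 0.80), which is above background on 1 array.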

How the data were processed

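Per the submitters' processing notes, the authors summarised the 6 arrays by RMA, using affy 1.36.1, and deposited log2 values of 25206 probe sets. The log2 scale was read from the values (0.19 to 12.21). The sources used here name no probe definition and no genome build. RMA compresses differences near background, so differences of dim genes may be understated. Platform annotation named 23185 probe sets with 1 gene each, 0 with several and 2021 with none, and all 23185 were found in the RefSeq table of GRCm38.p6.

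Genotypes were compared with limma 3.58.1 in R 4.3.3 (lmFit, eBayes, two-sided) over all probe sets, with Benjamini-Hochberg adjustment and a threshold of 0.05. The script was tested on simulated data. The sign of a difference was taken at 2 decimals, chosen in place of 3 after the results were seen. This removed Cma1 from the members whose sign changed without 1 array. Lists were described by counts and medians, not tested. All 30 measured members were accounted for. Further lineage genes were named where they were above background on all 6 arrays or had an unadjusted p under 0.05, and other markers were named from a short fixed list. Prm2, Rplp0, Ly6g, Cxcr2, Col1a1, Upk3b, Wt1, Lrrn4, Krt19, Gp9, Itga2b, Klf1 and Epor were chosen after their values were seen. So were the T, NK and B cell genes other than Cd79a, Cd79b, Cd3e and Ncr1, and the further genes named as below background. The members, lists and motifs were chosen with earlier results of these data known. Shared replicate numbers were not treated as pairs. The correlations of deviations for numbers 4, 5 and 6 were 0.15, -0.215 and 0.112, and for unlike numbers -0.363 to 0.362. With 3 arrays per group these cannot show whether samples with the same number belong together. The number of arrays limits the precision.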

Additional observations from a re-analysis of the deposited data

How the results depend on the processing

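Of the members, 0 passed under any setting tried. Over all probe sets the count past the threshold was 0, and 2 with array weights and 0 to 19 without 1 array (19 without Tet2-/- replicate 6). The replicate block gave 0 calls and left each difference and median as it was (neutrophil median 0.12). Whether the numbers pair the samples is not settled. Above background on all 6 arrays were 4 neutrophil, 1 mast cell and 2 GATA genes. These became 2, 0 and 0 with the 99th percentile of receptors, 2, 0 and 0 with other-tissue genes and 2, 0 and 0 with the array median, and with odorant receptors alone the neutrophil count was 3 and the GATA count 1. Without 1 array the mast cell count was 1 to 2 (2 without Tet2-/- replicate 6) and the neutrophil count 4 to 6 (6 without Tet2-/- replicate 4). The neutrophil median was 0.07 to 0.17 without 1 array and -0.04 by the genotype characteristic, and the eosinophil median -0.09 by that characteristic. Grouping by the genotype characteristic turned the sign of 22 of 30 differences: S100a8 -0.04, S100a9 0.40, Camp -0.19, Ltf -0.10, Ngp 0.03, Retnlg -0.11, Mpo -0.03, Ctsg -0.10, Lcn2 -0.23, Padi4 -0.07, Epx -0.12, Ear6 -0.15, Cpa3 0.39, Mcpt4 -0.09, Cma1 0.04, Tpsb2 -0.13, Kit 0.02, Mrgprb1 0.11, Mrgprb2 -0.02, Hdc -0.02, Gata1 -0.24 and Gata2 0.06. Among further genes, chosen for this after the data were seen, it turned Stfa3 (-1.11), Stfa1 (0.29), Siglecf (0.01) and Alox15 (-0.23), while Pglyrp1 was 0.05. Array weights turned 4 members: S100a8 -0.13, Ear6 -0.03, Kit 0.01 and Gata1 -0.07. Leaving out 1 array turned 13 at least once, with ranges of -0.19 to 0.51 for S100a8, -0.22 to 0.12 for S100a9, -0.27 to 0.01 for Ngp, -0.02 to 0.15 for Retnlg, -0.16 to 0.38 for Padi4, -0.02 to 0.07 for Epx, -0.06 to 0.05 for Prg2, -0.10 to 0.10 for Ear6, -0.06 to 0.02 for Kit, -0.01 to 0.16 for Fcer1a, -0.01 to 0.06 for Ms4a2, -0.05 to 0.36 for Hdc and -0.12 to 0.16 for Gata1. The other 17 kept their sign without each array in turn, and the causes were not tested. The smallest adjusted p of a member in any setting was 0.0605 (limma, Prtn3 without Tet2-/- replicate 6).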
